A study of Homo sapiens with 12 samples.

Results

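The genes followed here are 9 members of the transforming growth factor beta (TGF-beta) pathway, found by gene symbol among 56632 rows of the gene tables. They are the ligands TGFB1 and TGFB2, the receptors TGFBR1 and TGFBR2, the signal carriers SMAD2, SMAD3 and SMAD4, the inhibitor SMAD7 and the secreted target TGFBI. All 9 were among the 16275 genes that passed the filter on low counts, TGFB2 only through the counts of the knockout free fraction, so TGFB2 is described by its counts with no test. TGFB1 was chosen by its values in these libraries, as a transcript listed as bound by CBFB whose ratio of polysomal to free mRNA did not fall in the knockout. Its poly-to-free differences, and its differences between genotypes that use the free or polysomal libraries, are therefore given as values with no test. The other 8 were taken as parts of the pathway, with earlier results of these data known.

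The study asked whether CBFB, the non-DNA-binding partner of RUNX transcription factors, also acts on the translation of mRNAs in the cytoplasm. It used MCF10A, a non-tumorigenic line of human mammary epithelial cells, as wild type (WT) and after deletion of CBFB with CRISPR-Cas9 (CBFB_KO). The knockout lines came from single-cell colonies, and the number of clones behind these gradients is not given in the sources used here. Both genotypes had the same medium with 5% horse serum and 20 ng/ml EGF, and both received 100 µg/ml cycloheximide for 30 min, which holds ribosomes on the mRNA, before lysates were spun through a 10–50% sucrose gradient. Ribosome-free mRNA (free), mRNA with 1 ribosome (mono) and pooled polyribosomal mRNA (poly) were sequenced, with 2 replicates for each genotype and fraction, which makes 12 libraries in 6 conditions. Nothing in the labels says that replicates came from separate cultures, so each p-value measures the spread between these libraries, which may be technical.

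A TGF-beta dimer binds TGFBR2, a serine/threonine kinase at the cell surface, which then recruits and phosphorylates TGFBR1. TGFBR1 phosphorylates SMAD2 and SMAD3, and these enter the nucleus with SMAD4 to regulate transcription. SMAD7 is induced by the pathway and blocks TGFBR1, and TGFBI, an extracellular matrix protein, is a long-known TGF-beta response gene. In mammary epithelium the pathway is known for arresting growth in normal cells and for driving epithelial-mesenchymal transition in other settings.

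The mRNA sequences are shown first because TGFB1 stands among these genes as a transcript bound by the study's protein pair CBFB and hnRNPK, and hnRNPK is known for binding C-rich RNA. One principal mRNA per gene was searched on its sense strand for runs of at least 6 C (CCCCCC), in GENCODE release 29 (GRCh38), a later build than the hg19 of the deposited tables. Of 19613 protein-coding mRNAs, 40.3% held such a run. The TGFB1 mRNA of 2769 bases (gene at chr19:41330323-41353911, minus strand, 7 exons) held 2 runs, 1 in the 5′ UTR and 1 in the coding sequence, and among the 4404 mRNAs of 2000 to 3000 bases 38.2% held at least 1 run and 15.0% held as many as TGFB1. TGFB2, SMAD4, SMAD7 and TGFBI held 1 run each, SMAD3 held 2 and SMAD2, with a principal mRNA of 34526 bases, held 9, while TGFBR1 and TGFBR2 held 0. Of mRNAs within 500 bases of the TGFBR2 length, 50.9% held a run. The longest run in each of 3 mRNAs is shown with its flanks, and capitals mark the run. These lie in the 5′ UTR of TGFB1 (chr19:41353795-41353822, minus strand), in the coding sequence of TGFBI (chr5:136055755-136055782, plus strand) and in the coding sequence of SMAD3 (chr15:67165291-67165318, plus strand).
TGFB1: gtccggggcaCCCCCCCggctctgagcc
TGFBI: cgggtgctgaCCCCCCCaatggggactg
SMAD3: ccggccgagttCCCCCCactggacgact
A match is a description of letters and not a binding site. The study's own assay for TGFB1 by real-time PCR used the next pair of primers, which match the coding sequence of the same mRNA at chr19:41348361-41348380 (forward) and chr19:41348326-41348345 (reverse).
TGFB1 forward primer: tacctgaacccgtgttgctc
TGFB1 reverse primer: aacttgagcctcagcagacg

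Several facts about the libraries bear on every result below. Total estimated counts ran from 41050325 to 63886726 per library. In the 2 CBFB_KO free libraries, 71.56% and 87.22% of counts came from genes of the mitochondrial genome, against 11.1% and 20.81% in WT free and 1.26% to 8.08% in the mono and poly libraries. This left 13568143 and 5247878 other counts in CBFB_KO free, and their TMM scaling factors (trimmed mean of M values, which sets the bulk of genes equal between libraries) were 0.494 and 0.241. All levels below are TMM-normalised CPM (counts scaled to a common library size), so each is relative to the other genes of its library and not an amount per cell, and in such bulk libraries fewer cells and less RNA per cell cannot be told apart. The nuclear RNAs MALAT1 and NEAT1 also stood higher in CBFB_KO free, at a summed 49.6 and 128 CPM against 11.7 and 9.03 CPM in WT free, and the part of either in the results was not tested. The 2 CBFB_KO poly libraries were far closer to each other than any other pair of replicates (mean chi-square per gene of 2.16, against 116 to 884), so results that use them are also given with the pair averaged and counted as 1 sample. The basal markers KRT5, KRT14, KRT17, TP63 and LAMB3 summed to 951 to 4770 CPM in every library. The general epithelial markers CDH1, EPCAM, KRT8 and KRT18 summed to 754 and 512 CPM in WT free against 327 and 165 CPM in CBFB_KO free, to 765 and 839 CPM in WT poly against 524 and 530 CPM in CBFB_KO poly, and to 372 and 285 CPM in WT mono against 251 and 281 CPM in CBFB_KO mono. Their sum was thus lower in CBFB_KO without overlap in every fraction. This need not hold for each marker, as CDH1 alone was higher in CBFB_KO free (log2 difference 2.65). The part of these markers in the results was not tested. Of the other cell types, 5 of 6 fibroblast and 3 of 4 leukocyte markers were under 1 CPM in every library. CBFB mRNA itself was still present in CBFB_KO, at 11.3 and 14.1 CPM in free against 5.37 and 12.6 CPM in WT free. It stood at 4.79 and 3.89 CPM in mono (WT 8.03 and 6.2) and at 3.59 and 4.01 CPM in poly (WT 5.72 and 6.84). Both CBFB_KO libraries thus lay below both WT libraries in mono and poly, with log2 differences of -0.71 and -0.72. CBFB did not pass the test against WT in any fraction (lowest adjusted p = 0.373, in free, edgeR). A frameshift need not remove the mRNA, so this neither checks nor contradicts the knockout label.

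The ligand TGFB1 had levels that lay close together in the 2 genotypes. In the free fraction it stood at 153 and 188 CPM in WT and at 174 and 119 CPM in CBFB_KO. Mono libraries held 43.4 and 23.7 CPM in WT and 43.8 and 35.1 CPM in CBFB_KO. Poly libraries held 61.4 and 52.6 CPM in WT and 51.8 and 52.2 CPM in CBFB_KO. The genotypes overlapped in free and mono, and the CBFB_KO poly libraries lay just under the lower WT library. The fitted log2 difference between CBFB_KO and WT was -0.22 (95% confidence interval -1.11 to 0.67) in free and -0.13 (-1.02 to 0.76) in poly, given without a test. In mono, the comparison that did not enter the choice of TGFB1, the log2 difference was 0.23 ± 0.41 (SE) with an adjusted p of 1 and an interval of -0.66 to 1.12. Within each genotype TGFB1 leaned to the free fraction. Poly minus free was -1.58 on the log2 scale in WT (-2.49 to -0.67) and -1.49 in CBFB_KO (-2.40 to -0.59), given without a test because these are the ratios behind its choice. Without TMM factors the CBFB_KO value was 0.64, in a setting where the median of all genes was 2.05. The change in the poly-to-free difference, by which TGFB1 was chosen, was 0.09 (-1.17 to 1.34). By real-time PCR of its fractions, the paper reports a higher free share after CBFB deletion for every other bound transcript it tested but PKM. The main text of the paper does not name TGFB1 there. That measure is a share of each transcript's own RNA over the gradient, unlike the CPM used here.

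TGFB2, the second ligand, was near the limit of detection throughout. It had 13 and 9 counts in the CBFB_KO free libraries, 0 in both WT free libraries and in all mono libraries, 0 and 6 in WT poly, and 0 and 1 in CBFB_KO poly. A floor of 3 counts in each WT free library stands for 0.0407 CPM, and the mean in CBFB_KO free was 0.731 CPM. Both values rest on the TMM factors and leave out the counting error of the 13 and 9 counts, so no fold is given. No test is given, because the counts that let TGFB2 pass the filter are those of CBFB_KO free.

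**Figure D1:**
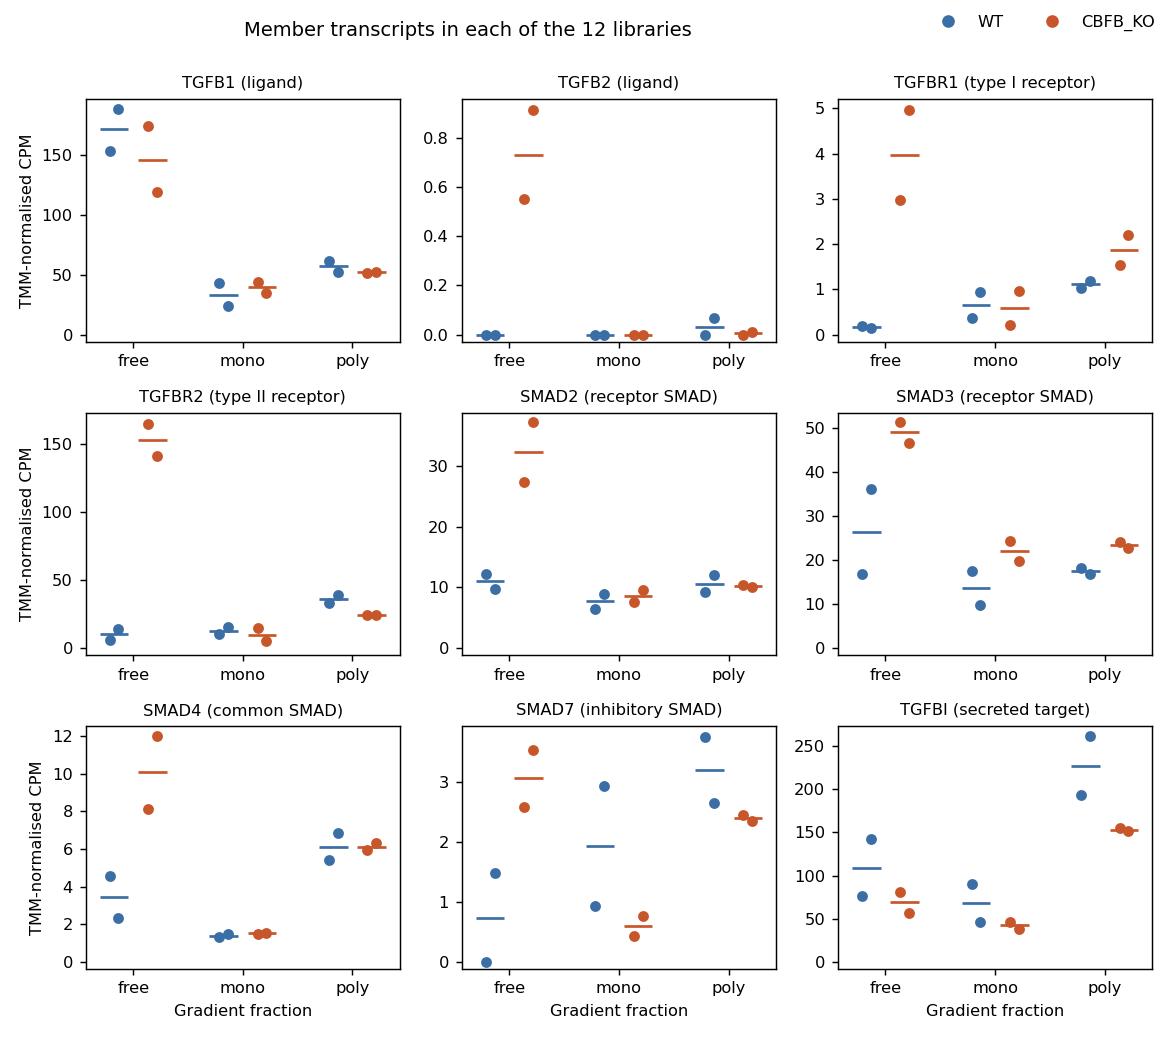
TMM-normalised CPM of the 9 member transcripts in each gradient fraction; each point is 1 library, bars are means of 2 libraries, blue is WT and orange is CBFB_KO, and each panel has its own linear axis. TGFBR2 stands at 165 and 141 CPM in CBFB_KO free against 6.32 and 14.1 in WT free, while TGFB1 and TGFBI overlap between genotypes in free.

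In the free fraction the receptors had the largest fitted differences among the members with counts there in both genotypes, and they passed the test between genotypes. TGFBR2 stood at 6.32 and 14.1 CPM in WT free and at 165 and 141 CPM in CBFB_KO free, which makes means of 10.2 ± 5.5 and 153 ± 17.0 (SD, n = 2). The libraries of the genotypes were far apart, and the fitted change was 15.0-fold (log2 difference 3.90 ± 0.60 SE, adjusted p = 0.000853, edgeR). TGFBR1, a scarcer transcript, had 13 and 11 counts (0.186 and 0.141 CPM) in WT free and 70 and 49 counts (2.97 and 4.96 CPM) in CBFB_KO free. Its fitted change was 23.9-fold, with a wide interval of 2.68 to 6.47 on the log2 scale and an adjusted p of 0.00276. Both calls held under every alternative tried, with log2 differences that stayed positive without TMM factors (2.23 for TGFBR2 and 2.78 for TGFBR1).

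In the fractions that carry ribosomes neither receptor passed the test between genotypes. TGFBR2 stood in mono at 10.1 and 15.4 CPM in WT and at 15.0 and 4.99 CPM in CBFB_KO, and in poly at 33.1 and 38.9 CPM in WT and at 24.6 CPM in both CBFB_KO libraries. Its log2 difference was -0.35 (-1.53 to 0.83) in mono and -0.55 (-1.72 to 0.63) in poly. TGFBR1 stood in poly at 1.03 and 1.19 CPM in WT and at 1.54 and 2.20 CPM in CBFB_KO, a log2 difference of 0.75 (-0.86 to 2.35), and in mono the difference was -0.15 (-1.82 to 1.51). The upper end of each of these 4 intervals lay below the free difference of the same gene.

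The poly-to-free difference of the receptors thus moved between genotypes. In WT, poly exceeded free by 1.82 for TGFBR2 (adjusted p = 0.0372) and by 2.75 for TGFBR1 (adjusted p = 0.0317) on the log2 scale. In CBFB_KO, poly minus free was -2.64 for TGFBR2 (adjusted p = 0.00563) and -1.08 for TGFBR1, which did not pass the test (adjusted p = 0.287). The WT calls of both receptors were lost when either WT replicate was left out and with the CBFB_KO poly pair as 1 sample, and that of TGFBR1 also when either CBFB_KO replicate was left out. The CBFB_KO call of TGFBR2 was lost without CBFB_KO replicate 2, with the poly pair as 1 sample and without TMM factors (-0.45). The test of the difference itself gave -4.45 ± 0.79 (SE) for TGFBR2 (adjusted p = 0.0039) and -3.83 ± 1.09 for TGFBR1 (adjusted p = 0.033). With the CBFB_KO poly pair counted as 1 sample TGFBR2 kept its call and TGFBR1 lost it. TGFBR1 also lost it when any one replicate was left out, while TGFBR2 kept its call in each of those fits and lost it without TMM factors, at -2.78.

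SMAD2 and SMAD4 rose with the receptors in the CBFB_KO free fraction by a smaller factor, although both fell on the other side of 0 without TMM factors (-0.20 for SMAD2 and -0.21 for SMAD4). SMAD2, phosphorylated directly by TGFBR1, stood at 12.2 and 9.71 CPM in WT free and at 27.4 and 37.2 CPM in CBFB_KO free, a change of 2.95-fold (log2 difference 1.56 ± 0.37 SE, adjusted p = 0.00803, edgeR). SMAD4, the partner shared with bone morphogenetic protein signalling, stood at 4.55 and 2.33 CPM in WT free and at 8.15 and 12 CPM in CBFB_KO free, a change of 2.92-fold (log2 difference 1.55 ± 0.43, adjusted p = 0.0173). Libraries of the genotypes did not overlap for either gene. Neither passed the test when only the 4 free libraries were fitted. SMAD2 was also lost without CBFB_KO replicate 2, and SMAD4 without WT replicate 2 or either CBFB_KO replicate.

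In poly, SMAD2 and SMAD4 lay close together in the 2 genotypes. SMAD2 stood in poly at 9.28 and 12 CPM in WT and at 10.4 and 10.1 CPM in CBFB_KO. SMAD4 stood in poly at 5.39 and 6.86 CPM in WT and at 5.93 and 6.32 CPM in CBFB_KO. The poly values of both genes overlapped between genotypes, with log2 differences of -0.05 (-0.84 to 0.73) for SMAD2 and of 0 (-0.92 to 0.92) for SMAD4. The poly-to-free difference moved by -1.61 ± 0.51 (SE) for SMAD2 (adjusted p = 0.0479) and by -1.55 ± 0.60 for SMAD4, which did not pass (adjusted p = 0.0886). The SMAD2 call was lost with the CBFB_KO poly pair as 1 sample, with no filter on low counts, with the gradient as a term in the model and when any one replicate was left out, and its value was 0.14 without TMM factors.

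SMAD3, the other substrate of TGFBR1, was higher in both CBFB_KO libraries than in both WT libraries of every fraction, but passed the test in none. It stood in free at 16.8 and 36.0 CPM in WT and at 51.3 and 46.5 CPM in CBFB_KO, a log2 difference of 0.89 (-0.07 to 1.85, adjusted p = 0.119, edgeR). Its mono levels were 17.6 and 9.74 CPM in WT and 24.2 and 19.8 CPM in CBFB_KO. Its poly levels were 18.2 and 16.8 CPM in WT and 24.1 and 22.7 CPM in CBFB_KO. The free value turned to -0.80 without TMM factors, and the test was passed, at 1.47, without WT replicate 2.

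The inhibitor SMAD7 was uneven between replicates in WT free and in mono. It had 0 and 115 counts in WT free (0 and 1.48 CPM), against 61 and 35 counts in CBFB_KO free (2.59 and 3.54 CPM). In mono it stood at 0.927 and 2.93 CPM in WT and at 0.427 and 0.772 CPM in CBFB_KO. In poly it stood at 3.75 and 2.65 CPM in WT and at 2.45 and 2.35 CPM in CBFB_KO. The CBFB_KO libraries were thus above WT in free and below WT in mono and poly, without overlap, but the spread between WT replicates was large and the free difference of 2.04 ± 1.28 (SE, adjusted p = 0.214) did not pass. Without WT replicate 2 the only WT free library had a count of 0 and the gene was called in free. It was also called there with no filter on low counts, at 2.02 (adjusted p = 0.0264, edgeR), with all libraries kept.

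TGFBI, the most abundant member in polysomes, passed no test between genotypes, and its fitted value was lower in CBFB_KO in each fraction. It stood in free at 76.1 and 142 CPM in WT and at 81.3 and 56.5 CPM in CBFB_KO, in mono at 90.6 and 46.1 CPM in WT and at 46.0 and 38.2 CPM in CBFB_KO, and in poly at 193 and 262 CPM in WT and at 155 and 152 CPM in CBFB_KO. Its log2 difference was -0.66 (-1.66 to 0.34) in free, -0.70 in mono and -0.57 in poly, so the value was of like size in every fraction, and the poly-to-free difference moved by 0.09 (-1.32 to 1.5). Without TMM factors the free difference was -2.28 and passed the test, in a setting where the median of all genes was -1.57.

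**Figure D2:**
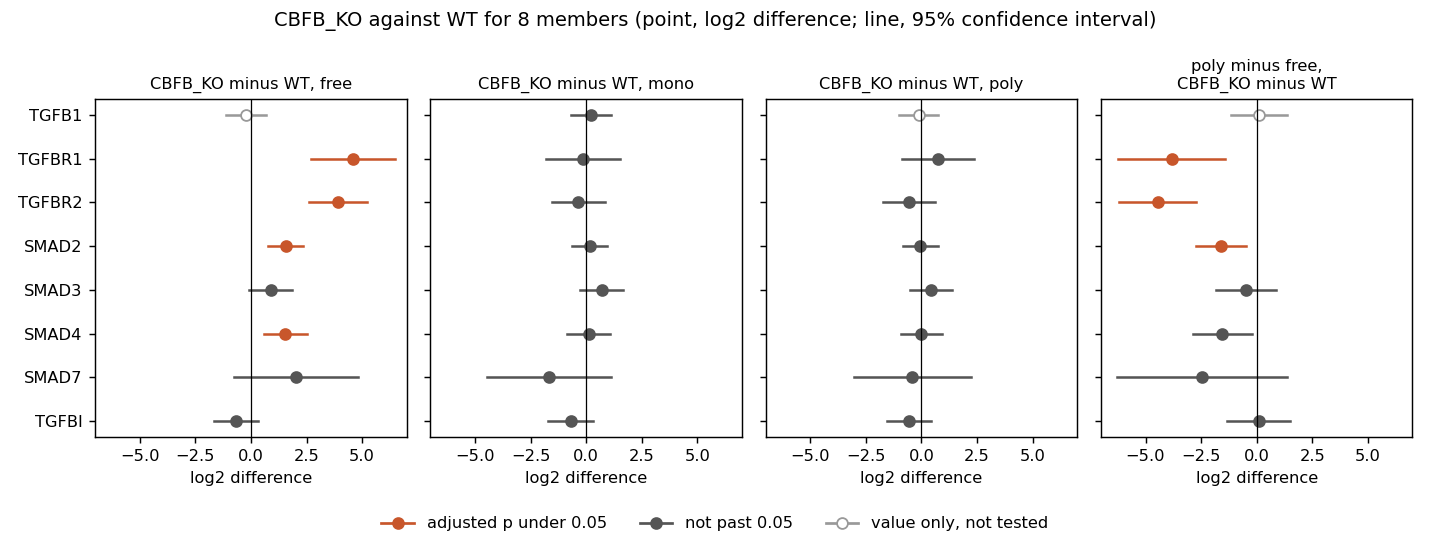
Log2 differences between CBFB_KO and WT for 8 members (TGFB2 is left out because WT free has 0 counts) in free, mono and poly and for poly minus free; points are fitted values, lines are 95% confidence intervals, orange passed an adjusted p of 0.05, dark grey did not, and open points for TGFB1 were not tested. Calls stand in free and in poly minus free alone, with TGFBR2 at 3.90 and -4.45.

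Counted over the members other than TGFB1 and TGFB2, 4 of 7 rose in the CBFB_KO free fraction and 0 fell, where 24.2% of all tested genes rose and 18.1% fell (edgeR, Benjamini-Hochberg adjusted p under 0.05). In 6 of these 7 members both CBFB_KO free libraries lay above both WT free libraries, as they did in 37.4% of all genes. The median log2 difference over the 7 was 1.56, against 0.04 over all genes. Among the genes called in the free fraction, 57.3% were higher in CBFB_KO, a share that became 16.5% without TMM factors, where the median of all genes fell by 1.57, and 72.0% with library sizes that left out mitochondrial genes. Relative to that median the values without TMM factors were 3.79 for TGFBR2, 4.34 for TGFBR1, 1.37 for SMAD2, 1.36 for SMAD4, -0.26 for TGFB1 and -0.72 for TGFBI. Leaving out TMM factors moves all genes of a library alike, so these places were bound to be nearly kept and are no check on the calls.

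In the poly-to-free difference 3 of the same 7 members (TGFBR1, TGFBR2 and SMAD2) fell in CBFB_KO and 0 rose, where 14.3% of all genes fell and 4.10% rose. Of these calls 22.3% were rises, against 82.3% without TMM factors, where the median of all genes was 1.54 and 0 of the 7 members passed, and 39.3% with DESeq2, which called the same number of members. The median over the 7 was -1.61, against -0.10 over all genes. With the CBFB_KO poly pair as 1 sample, 1 member (TGFBR2) was called. These comparisons share the free and poly libraries with those above and do not add independent evidence.

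No member passed the test between genotypes in mono (0 of 8 tested, where 0.147% of all genes did) or in poly (0 of 7, where 0.190% did), and likewise for poly minus mono (0 of 7, with 0% and 0 of 16275 genes called). In these 3 comparisons 0 members had an unadjusted edgeR p under 0.05, and DESeq2 also called 0. Among all genes edgeR gave unadjusted p under 0.05 for 712 in mono, 451 in poly and 164 in poly minus mono.

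Between fractions of the same genotype, 2 of 7 members passed for poly against free in WT, where 22.0% of all genes did. These were TGFBR1 and TGFBR2, both higher in poly. For poly against free in CBFB_KO 2 of 7 passed, both higher in free (TGFBR2 and SMAD2, the last at -1.66 with an adjusted p of 0.00644), where 31.4% of all genes did. For poly against mono in WT 2 of 8 passed, both higher in poly, where 20.6% of all genes did. These were SMAD4 (log2 difference 2.14 ± 0.44 SE, adjusted p = 0.00799) and TGFBI (1.73 ± 0.47, adjusted p = 0.0235). The 8 include TGFB1, which did not pass (0.77) and whose WT poly libraries entered its choice. With the CBFB_KO poly pair as 1 sample, 0 members were called for poly against free in either genotype, and SMAD4 alone for poly against mono in WT, which gave 0 members without WT replicate 2. The share of higher calls moved with the scaling, from 63.6% to 87.8% without TMM factors for poly against free in WT, from 53.1% to 91.1% for poly against mono in WT and from 46.6% to 93.1% for poly against free in CBFB_KO.

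**Figure D3:**
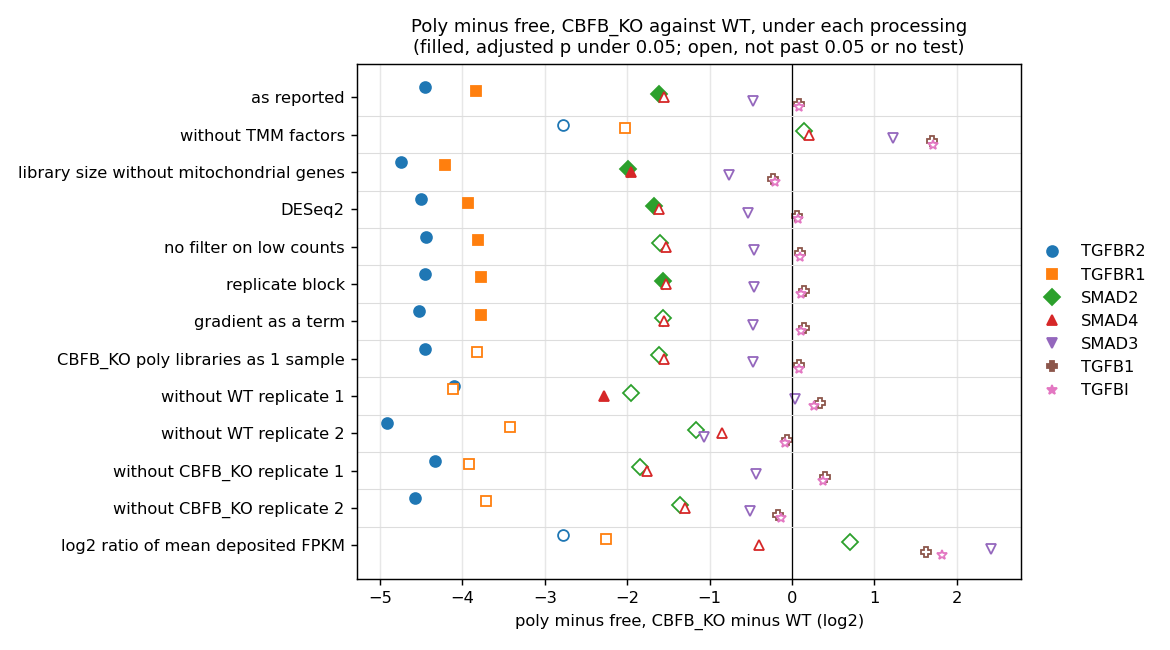
Poly minus free, CBFB_KO minus WT, on the log2 scale for 7 members under each processing; filled symbols passed an adjusted p of 0.05 and open symbols did not or had no test. TGFBR2 lies below 0 in every row and is filled in all tested rows except the one without TMM factors, where it is -2.78.

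The levels of the members can be set side by side per length, as CPM per kb of effective length averaged over the libraries by counts. In WT poly the order was TGFBI at 150 ± 31.8 CPM per kb (SD, n = 2), TGFB1 at 23.4 ± 2.56, TGFBR2 at 8.15 ± 0.924, SMAD3 at 6.55 ± 0.378, SMAD2 at 5.18 ± 0.931, SMAD4 at 1.47 ± 0.25, SMAD7 at 1.42 ± 0.348, TGFBR1 at 0.19 ± 0.019 and TGFB2 at 0.00714 ± 0.0101. Each neighbour was separate from the next in both libraries except SMAD4 and SMAD7, which overlapped. Among the receptors, TGFBR2 mRNA was thus far more abundant than TGFBR1 mRNA. In WT free TGFBI (71.9 CPM per kb) and TGFB1 (70.2) overlapped, and TGFBR2 was the fifth at 2.31, after SMAD3 (9.89) and SMAD2 (5.34). In CBFB_KO free TGFBR2 was the third at 34.6 CPM per kb and overlapped with TGFBI at 45.4, which overlapped with TGFB1 at 60.2. The order in CBFB_KO poly was that of WT poly apart from SMAD3 (8.77) above TGFBR2 (5.57).

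The members differ in length, and length moved with the difference between genotypes over all genes. Across the tested genes the Spearman correlation between mean effective length and the free difference was 0.45 over 16273 genes, which are not independent replicates and share the same libraries, and for the poly-to-free difference it was -0.47. The median free difference was -0.98 in 6916 genes under 1500 bases, 0.23 in 5829 genes of 1500 to 3000 bases, 1.84 in 2555 genes of 3000 to 5000 bases and 2.80 in 973 genes of 5000 bases and over. The longest members were TGFBR1 (5866 bases), TGFB2 (4635), TGFBR2 (4415) and SMAD4 (4161), and the shortest was TGFBI (1518), with SMAD2 (2053), SMAD7 (2250), TGFB1 (2432) and SMAD3 (2668) between. These are means over libraries weighted by counts, and RSEM's effective length ran over libraries from 1311 to 8582 bases for SMAD4, 956 to 6333 for TGFBR1, 1311 to 4774 for TGFB2, 1428 to 4964 for SMAD2 and 1647 to 4893 for SMAD3, but only from 4384 to 4443 for TGFBR2. Levels per length and length classes of the first 5 therefore rest on the averaged length. On that length SMAD4, at 1.55, lay below the median of genes of its length class. TGFBR2 (3.90) and TGFBR1 (4.58) lay above theirs, but the interval of TGFBR1 (2.68 to 6.47) held its class median of 2.80. For poly minus free between genotypes the class medians were -1.94 at 3000 to 5000 bases and -3.01 at 5000 bases and over. TGFBR2 stood there at -4.45 (-6.19 to -2.72), SMAD4 at -1.55 and TGFBR1 at -3.83 (-6.22 to -1.44), an interval that held -3.01. In mono and poly the correlation was -0.12 and -0.18. The part of length in the results was not tested.

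**Figure D4:**
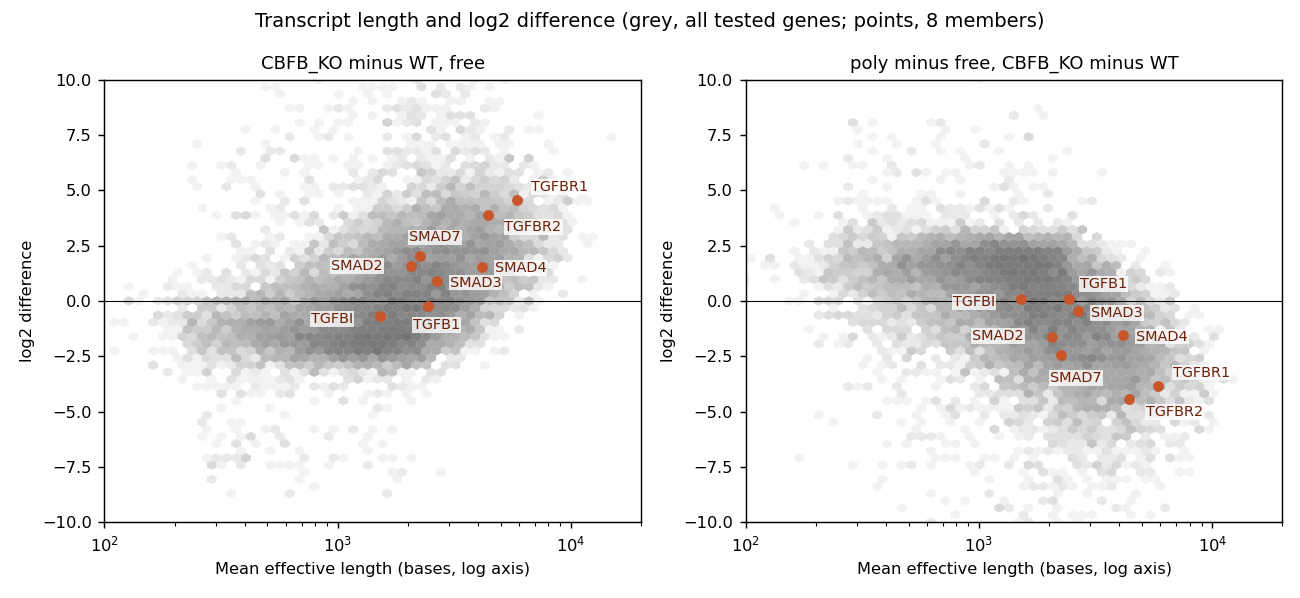
Log2 difference against mean effective length (log axis) for all tested genes in grey hexagons, darker where more genes fall, with 8 members as orange points; the left panel is CBFB_KO minus WT in free, the right panel poly minus free in CBFB_KO minus WT, and values past 10 on either side are not drawn. Longer transcripts lie higher on the left (Spearman 0.45) and lower on the right (-0.47).

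Other genes of the pathway were read from 3 lists of ligands and their activators, of receptors, SMADs and regulators, and of targets, chosen with earlier results of these data known. In the free fraction 7 of 12 tested ligand and activation genes rose in CBFB_KO and 0 fell, with a median log2 difference of 2.11. Of all genes 24.2% rose and 18.1% fell, with a median of 0.04. Genes of 3000 to 5000 bases had a median of 1.84, and those of 5000 bases and over one of 2.80. None of the 3 lists was compared with genes of like length, and the part of length was not tested. ITGAV, the integrin chain that helps to free latent TGF-beta, differed by 4.74 ± 1.33 (SE, adjusted p = 0.0171, edgeR), its partner ITGB6 by 3.18 ± 0.60 (adjusted p = 0.00281), and LTBP1, which tethers latent TGF-beta to the matrix, by 4.43 ± 0.76 (adjusted p = 0.00161). LTBP1 stood at 0.228 and 0.540 CPM in WT free and at 6.03 and 10.7 CPM in CBFB_KO free. With every replicate kept, the alternatives gave free values of 2.85 to 5.27 (ITGAV), 1.49 to 3.54 (ITGB6) and 2.58 to 4.75 (LTBP1). In the poly-to-free difference 6 of 12 fell and 0 rose (median -2.60), where 14.3% of all genes fell and 4.10% rose (median -0.10), with ITGAV at -5.61, LTBP1 at -5.54 and LTBP4, another latent TGF-beta binding protein, at -3.57.

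Of the receptors, SMADs and regulators 12 of 25 tested genes rose in free and 1 fell (median 1.93), against the same 24.2% and 18.1% of all genes (median 0.04). ACVR1, a type I receptor for bone morphogenetic proteins, had 0 and 27 counts in WT free and 339 and 203 in CBFB_KO free. It differed by 6.61 ± 1.08 (SE, adjusted p = 0.00124), ZFYVE9, which presents SMADs to the receptor, by 5.24 ± 1.36 (adjusted p = 0.0126), and BMPR2, a type II receptor, by 5.53 ± 0.52 (adjusted p = 7.95e-05). BMPR2 stood at 0.771 and 1.09 CPM in WT free and at 31.3 and 55.5 CPM in CBFB_KO free, but at 1.66 and 2.48 against 2.36 and 2.33 CPM in poly. The gene that fell was BAMBI, a decoy receptor, at -1.81 ± 0.61 (adjusted p = 0.0353). It was uneven between the CBFB_KO free libraries, with 60 and 4 counts (2.55 and 0.405 CPM). In the poly-to-free difference 9 of 25 fell and 0 rose (median -2.02), against 14.3% and 4.10% of all genes, with ACVR1 at -7.20, ZFYVE9 at -5.68 and BMPR2 at -5.36.

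Targets of the pathway were called about as often as genes at large. The list was not sorted by the direction in which the pathway moves each gene, so these counts do not measure pathway activity. In free 5 of 24 tested genes rose and 5 fell (20.8% each way, median -0.13), near the 24.2% and 18.1% of all genes. FN1, fibronectin, differed by 3.09 ± 0.99 (SE, adjusted p = 0.0289), COL4A1, a basement membrane collagen, by 3.04 ± 0.57 (adjusted p = 0.00258) and ITGB1, an integrin chain, by 2.38 ± 0.61 (adjusted p = 0.0114). TAGLN, an actin-binding protein, fell by 2.75 on the log2 scale (adjusted p = 0.00916), ID1, an inhibitor of basic helix-loop-helix factors, by 2.40 (adjusted p = 0.0222) and ANGPTL4, a secreted lipase inhibitor, by 2.23 (adjusted p = 0.0204). These 3 were uneven between the CBFB_KO free libraries, with ID1 at 106 and 13.4 CPM. In the poly-to-free difference 3 of 24 fell and 0 rose (12.5%, median 0.34), near the 14.3% of all genes that fell. They were COL4A1 (-4.26), TIMP3 (-2.33), an inhibitor of matrix proteases, and LTBP2 (-2.20), which is also in the ligand list. With every replicate kept, the alternatives gave -4.64 to -2.59 (COL4A1), -2.67 to -0.63 (TIMP3) and -2.52 to -0.07 (LTBP2). In mono and poly 0 genes of any of the 3 lists passed the edgeR test.

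**Figure D5:**
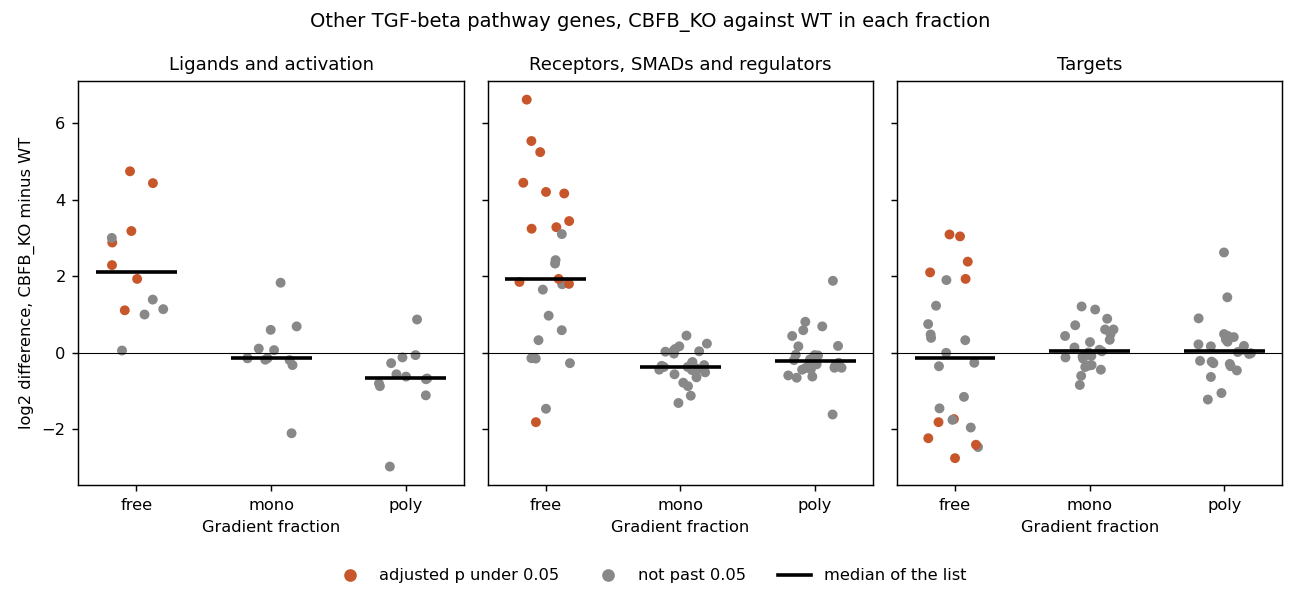
Log2 differences between CBFB_KO and WT for the tested genes of 3 TGF-beta pathway lists in each gradient fraction; each point is 1 gene, orange passed an adjusted p of 0.05, and black bars are list medians. The ligand and receptor lists have medians of 2.11 and 1.93 in free, against -0.14 and -0.37 in mono.

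By Pearson correlation of log2 CPM over the 12 libraries, among 7046 genes with a median of at least 5 CPM, the genes most like TGFB1 were ADO (r = 0.91), KMT5A (r = 0.91) and DMWD (r = 0.90). All 3 share with TGFB1 a higher level in free than in mono and poly. DMWD, for one, averaged 40.6 CPM in WT free, 16.8 in WT mono and 17.4 in WT poly. Among the members the likeness to TGFB1 was 0.73 for SMAD3, 0.59 for SMAD2, 0.52 for SMAD4, 0.39 for TGFBR2, 0.19 for TGFBI, -0.06 for TGFBR1 and -0.22 for SMAD7. These are descriptions over libraries that share 6 conditions.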

How the data were processed

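RNA from 12 gradient fractions was made into TruSeq mRNA libraries and read on a NextSeq 500. The submitters' processing notes name Trimmomatic, STAR and RSEM with hg19, without versions or annotation. The deposited gene tables give expected counts (fractional read estimates), FPKM values that the authors computed per library, and effective lengths. Expected counts were rounded and tested with edgeR 4.0.16 in R 4.3.3 (quasi-likelihood, TMM factors, filterByExpr, 1 mean for each of 6 conditions), with Benjamini-Hochberg adjustment over 16275 genes and a threshold of 0.05, after the code was tested on simulated data. FPKM served as an alternative for values between fractions. Gene names were matched for 49995 of 56632 identifiers. Members and lists were chosen with earlier results of these data known, and TGFB2 and the contrasts behind the choice of TGFB1 were left out of the tests and counts. Named were the 9 members, CBFB, from each list the 3 genes with the largest called change in each direction in free and in poly minus free, and the 3 genes most like TGFB1. Alternatives were no TMM factors, library sizes without mitochondrial genes, DESeq2 1.42.0, no filter, a replicate block, the gradient as a term, CBFB_KO poly as 1 sample, each replicate left out and single-fraction fits. Counting floors cover counting error only.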

Additional observations from a re-analysis of the deposited data

Results flagged for a closer look

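Genes are listed here because the test of the interaction found that poly minus free differed between CBFB_KO and WT. Among the members these were TGFBR2 (-4.45 on the log2 scale), TGFBR1 (-3.83) and SMAD2 (-1.61). Among the named ligand and activation genes these were ITGAV (-5.61), LTBP1 (-5.54) and LTBP4 (-3.57). ACVR1 (-7.20), ZFYVE9 (-5.68) and BMPR2 (-5.36) stood among receptors, SMADs and regulators, and COL4A1 (-4.26), TIMP3 (-2.33) and LTBP2 (-2.20) among targets. ACVR1, ZFYVE9 and ITGAV had a count of 0 in the first WT free library. With 2 libraries per condition no sample could be examined as an outlier.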

How the results depend on the processing

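The scaling of the CBFB_KO free libraries, the near-identical CBFB_KO poly pair and the small number of replicates limit these results. The number of members called in free was 4, and 2 with only the libraries of that fraction. For poly minus free between genotypes it was 3, and 0 without TMM factors and 1 with the CBFB_KO poly pair as 1 sample. That pair as 1 sample gave 0 for poly against free in WT and in CBFB_KO (2 each as reported). For poly against mono in WT it gave 1 (2 as reported), where library sizes without mitochondrial genes gave 5, TGFB1 among them. DESeq2 gave 4 for poly against free in CBFB_KO. With each replicate left out in turn the counts were 2 to 5 in free, 1 to 2 for poly minus free between genotypes, 0 to 1 for poly against free in WT, 0 to 2 for poly against mono in WT, and 0 to 3 for poly against free in CBFB_KO. Without TMM factors the sign turned in free for SMAD2 (-0.20), SMAD3 (-0.80) and SMAD4 (-0.21). It turned in poly minus free between genotypes for SMAD2 (0.14), SMAD3 (1.22) and SMAD4 (0.20). In CBFB_KO it turned in poly minus free for TGFB1 (0.64), TGFBR1 (1.27), SMAD2 (0.65), SMAD3 (1.14), SMAD4 (1.6) and SMAD7 (1.95). That scaling shifted the median of all genes to -1.57, 1.54 and 2.05 in these comparisons (0.04, -0.10 and -0.12 as reported). It moves all genes of a library alike. That each of these values kept its sign relative to the median therefore follows from the scaling and is no check. With the deposited FPKM the sign of poly minus free turned between genotypes for SMAD2 (0.70) and SMAD3 (2.41). In CBFB_KO, among the members compared, FPKM turned it for TGFB1 (0.50), TGFBR1 (1.28) and SMAD2 (1.45). With library sizes without mitochondrial genes it turned between genotypes for TGFBI (-0.21) and TGFB1 (-0.23), where the median was -0.49. In free that setting turned TGFB1 to 0.11, where the median was 0.43. With replicates left out, poly minus free between genotypes ran from -1.07 to 0.03 for SMAD3 and from -0.14 to 0.37 for TGFBI, and mono ran from -0.17 to 0.74 for TGFB1, -1.54 to 0.60 for TGFBR1 and -1.35 to 0.24 for TGFBR2. The cause was not tested.

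Replicate numbers paired the samples weakly at most (correlation of replicate differences between genotypes 0.07 in free, 0.24 in mono and 0.03 in poly). Within a genotype the correlation between free and poly was 0.05 in WT and 0.02 in CBFB_KO. Between mono and poly it was 0.22 in WT and 0 in CBFB_KO, and between free and mono -0.04 and 0.12. With a replicate block the members called stayed 4 in free and 3 for poly minus free between genotypes, and the block changed no other member's call. Over all genes the number of calls ran over the alternatives from 1623 to 8258 in free (6882 as reported, 1921 with the free libraries alone), 2 to 121 in mono (24), 0 to 173 in poly (31), 362 to 5377 for poly minus free between genotypes (3000), 0 to 16 for poly minus mono between genotypes (0), 1561 to 5084 for poly against free in WT (3574), 0 to 4812 for poly against mono in WT (3360) and 546 to 8235 for poly against free in CBFB_KO (5104). Of 620 single values compared with an alternative, 476 kept their direction and their side of the threshold.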
